A study of Mus musculus with 12 samples.

Results

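The genes described here serve amino acid supply and use in mouse cells: the transcription factor gene Atf4 and its partners, outputs of the stress response that ATF4 drives, enzymes of serine, one-carbon, asparagine, proline, cysteine and threonine metabolism, amino acid carriers, and the cytosolic tRNA synthetases, which load amino acids onto their tRNAs. The list held 36 genes, given by name. Each gene was read through 1 probe set, the one with the highest mean log2(signal + 16) over all 12 arrays among those annotated with that symbol alone. By this rule 35 of the 36 were measured, of 12393 genes with a symbol on the arrays, and Pycr1, an enzyme of proline synthesis, was not analysed here. The tests covered 34 of them, of 7507 genes past a filter on low signals (mean above the 40th percentile, a signal of 6.32). Vldlr, a lipoprotein receptor, did not pass that filter, with signals from 0.4 to 9.1.

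The cells were BW5147, an established line from a mouse thymic T cell lymphoma, and total RNA was taken 8 h after treatment. There were 6 groups: unstimulated cells, cells with dexamethasone (Dex, a drug that activates the glucocorticoid receptor, at 100 ng/ml), cells with the T cell cytokine interleukin-9 (IL-9), cells with the chemokine CCL1, and cells with Dex plus IL-9 or Dex plus CCL1, IL-9 and CCL1 each at 100 U/ml. All groups shared a medium with fetal calf serum, asparagine at 0.24 mM, arginine at 0.55 mM, glutamine at 1.5 mM and 2-mercaptoethanol. Each group held 2 Affymetrix arrays, which the labels number 1 and 2 (Dex 1 is the array numbered 1 of the Dex group), and the series text says that the experiment was done in duplicate. The labels do not say whether the numbers mark separate cultures, so the p-values here rest on an array-to-array spread that could be technical. The array CCL1 2 was of another array type and stood in a table of its own; it enters all descriptions over 12 arrays but no test, so CCL1 alone rested on 1 array there. Values were deposited as linear signal intensities scaled to the same trimmed mean in every array, so a shift shared by all transcripts cannot be seen.

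ATF4 is the main effector of the integrated stress response. When amino acids run short or misfolded protein builds up, kinases phosphorylate the initiation factor eIF2, most translation slows, and the Atf4 mRNA is translated more. ATF4 then binds, together with C/EBP family partners, at composite elements near genes for amino acid synthesis, uptake and tRNA loading. In lymphoid tumours the pathway is known through asparagine synthetase (Asns), because cells with little of this enzyme depend on asparagine from outside.

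The composite element is usually written TGATGNAA, and promoters of the genes were searched for it on both strands. RefSeq promoters of the assembly GRCm38.p6, 250 bases before to 50 after a start site, were matched for 29 of the 36 genes, with 33 promoters; Cth, Slc7a5, Slc1a5, Nars, Wars, Cars and Lars were not matched. The element, as TGATGNAA or TTNCATCA, was found in 11 of the 33 promoters (33.3%), and in 3.97% of all 32851 promoters of that length in the table. It lay before the start in 8 genes, namely Aars, Asns, Chac1, Gars, Pycr1, Slc7a11, Tars and Vldlr, against 3.45% of all promoters. The windows listed next show the element, in capitals, in 6 of these genes that the arrays measured; each is written 5′ to 3′ on the strand of the gene.
Asns, chr6:7693210-7693256, minus strand: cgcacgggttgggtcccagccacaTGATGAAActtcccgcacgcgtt
Chac1, chr2:119351025-119351080, plus strand: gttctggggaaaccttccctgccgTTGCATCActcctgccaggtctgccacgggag
Slc7a11, chr3:50443648-50443703, minus strand: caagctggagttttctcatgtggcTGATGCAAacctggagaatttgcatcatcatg
Aars, chr8:111033706-111033761, plus strand: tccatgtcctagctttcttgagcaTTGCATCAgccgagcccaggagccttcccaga
Gars, chr6:55037947-55038000, plus strand: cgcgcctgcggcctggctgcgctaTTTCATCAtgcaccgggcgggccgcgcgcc
Tars, chr15:11399659-11399697, minus strand: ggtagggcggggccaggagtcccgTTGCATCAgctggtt
Slc7a11 holds a second match, on the other strand, in the lower case stretch of its window. The elements in capitals began between positions -193 and -15, counted backwards from -1, the last base before the start. Trib3, Iars and Yars had a match only within the first 50 bases after the start. A match is a description of the letters and not a measured binding site, and a window without one says nothing on whether ATF4 acts at that gene. The list was made of genes named for this pathway, so a share above that of all promoters can follow from the choice of genes. It is no result of these arrays, and whether a match goes with the levels was not tested.

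Before the results, 3 arrays stood against their labels. The mean level of 8 genes known to respond to glucocorticoid, each centred on its own mean over 12 arrays, was 0.17 to 0.46 (log2) in the arrays numbered 1 with Dex and 0.16 to 0.45 in those numbered 2 with Dex. It was -0.79, -1.08 and -0.88 in the arrays labelled unstimulated 2, IL-9 2 and CCL1 2. In the arrays labelled unstimulated 1, IL-9 1 and CCL1 1 it was 0.58, 0.25 and 0.31, which lay in or above the range of the Dex arrays. Comparisons that rest on these 3 arrays are therefore given beside the Dex arrays alone, where the mean of the glucocorticoid targets did not differ in this way between numbers. Of 10 T lineage markers 9 were measured and 7 passed the filter, with Thy1 at 878 to 1525 and Cd3g at 531 to 661, while Cd5 and Cd2 stayed at or below 14.4. The B cell and erythroid markers measured were all under the filter. Of the myeloid ones Lyz2 and Csf1r passed it, at 24.6 or less, and of the epithelial and fibroblast ones Krt8 and Col1a2, at 16.2 or less.

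The mean level of the amino acid genes separated the arrays by number, while the treatment groups overlapped. Averaged over the 35 genes, each centred on its own mean, the 6 arrays numbered 1 lay between -0.21 and 0.00 (log2, median -0.11), and the 6 numbered 2 lay between 0.04 and 0.17 (median 0.11). The 2 sets did not overlap. Within a group the array numbered 2 was higher by 0.38 in Dex, 0.23 in unstimulated cells, 0.18 in Dex plus IL-9, 0.18 in CCL1, 0.18 in Dex plus CCL1 and 0.13 in IL-9. The group means spanned a smaller range, from -0.05 in unstimulated cells to 0.06 in IL-9. The groups with IL-9 were the highest, with Dex plus IL-9 at 0.05, next to -0.01 for CCL1. The mean includes Tha1, a gene of low signal that stood at 1.24 on IL-9 1 and 1.19 on Dex+IL-9 1. In the 6 arrays with Dex alone, the arrays numbered 1 had -0.21, -0.04 and -0.13 and those numbered 2 had 0.17, 0.15 and 0.04, so the separation was also there without the 3 arrays that stood against their labels.

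**Figure D1:**
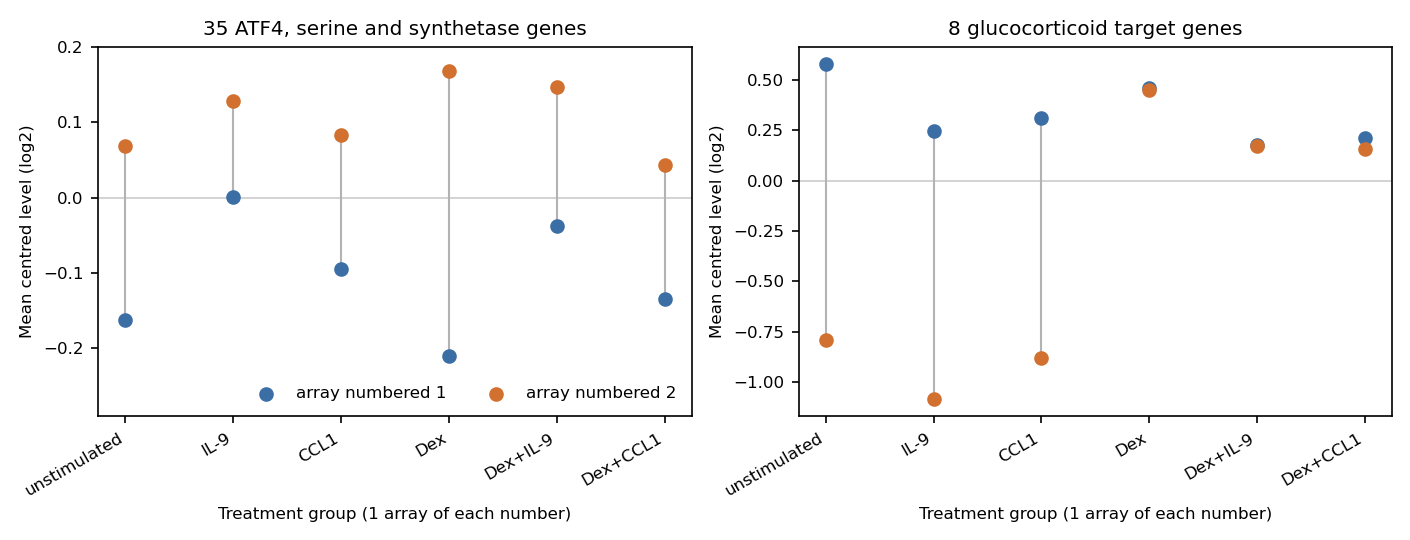
Left, the mean centred level (log2, vertical axis) of the 35 amino acid and stress genes on each array, by treatment group (horizontal axis); right, the same for 8 glucocorticoid target genes. Blue points are arrays numbered 1 and orange points arrays numbered 2; in every group the orange point is above the blue one on the left, from 0.04 to 0.17 against -0.21 to 0.00, while on the right the numbers differ in the 3 groups without Dex.

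Counted gene by gene, 30 of the 35 genes were higher in number 2 on the mean of the 6 groups, with a median difference of 0.22 (log2), where 54.0% of all 7507 genes were higher with a median of 0.02. In single groups the count was 26 of 35 in unstimulated, IL-9 and CCL1 cells, 28 in Dex plus CCL1, 29 in Dex and 30 in Dex plus IL-9. Of all genes, 51.9% were higher in unstimulated cells, 53.1% in IL-9 and 51.5% in CCL1. The shares were 48.0% in Dex plus CCL1, 58.2% in Dex and 52.3% in Dex plus IL-9. Dex had the highest median difference both for the 35 genes, 0.42, and for all genes, 0.07. Of the 34 tested genes, 16 were higher in number 2 in all 6 groups, against 6.25% of all genes. For 4 of the 34, Atf4, Mthfd2, Slc3a2 and Slc7a5, the lowest array numbered 2 lay above the highest numbered 1, against 1.25% of all genes, and 0 of 34 lay wholly below, against 0.559%. A lower signal from fewer cells with the transcript and from less of it in each cell cannot be told apart in such RNA.

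Single genes did not pass the test across the whole table. In a limma model with a term for group and 1 for number over the 11 arrays of the larger table, 0 of 34 genes passed an adjusted p of 0.05 (Benjamini-Hochberg over 13575 probe sets, of which 0.0295% passed). At an unadjusted p below 0.05 there were 16 of 34, all higher in number 2, against 12.4% of all probe sets in either direction. The median difference of the 34 was 0.21, and that of all probe sets 0.00. In the arrays with Dex, where the mean of the glucocorticoid targets was alike in both numbers (single ones differed by -0.75 to 0.42), 0 of 34 passed (0.0221% of all), 14 had an unadjusted p below 0.05 (15.8% of all), and the median was 0.24. Without the array Dex+IL-9 2, Mthfd2, Asns and Slc7a5 passed in that comparison, but there 528 probe sets of the whole table passed, against 3 with that array. In the arrays without Dex, 0 passed (0.796% of all), 8 had an unadjusted p below 0.05 (9.17% of all), and the median was 0.16. Whether Dex acted on the genes differently in the 2 numbers was tested as well: 0 of 34 passed (0.206% of all), with 1, Sesn2, below 0.05 unadjusted (10.1% of all).

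Other measures also differed between the numbers, and their part in the result was not tested. The signal of the 18S ribosomal RNA control, at its 3′ probe set, was 97.9 to 302.2 in the arrays numbered 1 and 57.6 to 151.0 in those numbered 2. These ranges overlapped, and number 1 was the higher in every group except Dex plus CCL1, at 97.9 and 151.0. The BioB control, at its 3′ probe set, had 56.1 to 80.7 in number 1 and 44.3 to 151.7 in number 2, with 151.7 on Dex+CCL1 2. The ratio of 3′ to 5′ signal, which rises when RNA is broken, was 0.682 to 0.746 and 0.685 to 0.781 for Gapdh, and 1.095 to 1.214 and 1.124 to 1.225 for actin, so these ranges overlapped.

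**Figure D2:**
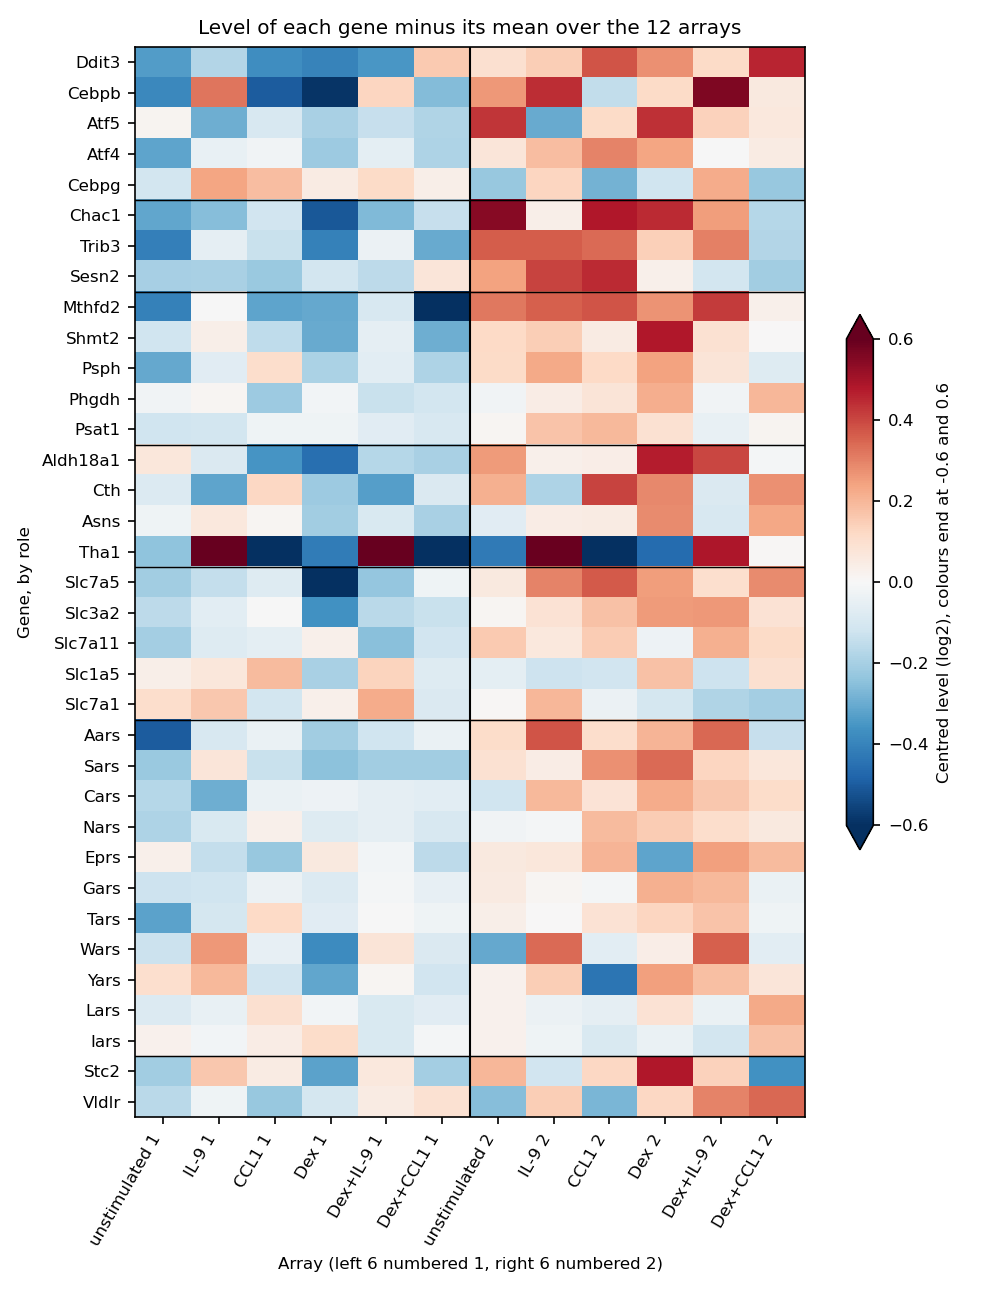
Each row is a gene, grouped by role between the horizontal lines, and each column an array, with the 6 numbered 1 on the left and the 6 numbered 2 on the right. Colour gives log2(signal + 16) minus the mean of the gene over 12 arrays; the right side is mostly red, with 23 to 29 of 35 genes above their own mean per array against 4 to 12 on the left, and the row of Tha1 follows IL-9 instead.

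Among the transcription factors, Atf4 itself had a signal of 861 and 1134 in unstimulated cells (arrays 1 and 2), 924 and 1274 with Dex, 1032 and 1076 with Dex plus IL-9, 946 and 1117 with Dex plus CCL1, 1045 and 1229 with IL-9, and 1062 and 1330 with CCL1. Every array numbered 2 was above every one numbered 1, by 0.27 ± 0.09 (log2, SE) in the limma model, with an adjusted p of 0.29. A second Atf4 probe set past the filter was higher in number 2 in 5 of 6 groups, by 0.24 on average. Ddit3, which encodes CHOP, the C/EBP family factor induced late in the stress response, ran from 48.9 to 79.4 (median 51.5) in number 1 and from 75.5 to 101.5 (median 83.2) in number 2. It was higher in number 2 in all 6 groups, by 0.44 ± 0.11 (adjusted p of 0.21, limma), and only the array Dex+CCL1 1, at 79.4, reached into the other range. Cebpb, a C/EBP partner of ATF4, was likewise higher in all 6 groups, by 0.45 ± 0.12 (adjusted p of 0.22). Atf5, a related factor that is also regulated through translation, was higher in 5 of 6, all but IL-9. Cebpg, a small C/EBP protein that pairs with ATF4, went the other way in 5 of 6 groups: it ran from 116.8 to 152.6 in number 1 and from 101.5 to 150.9 in number 2, and the ranges overlapped. Another Cebpg probe set past the filter, at a mean signal of 61.0, had the opposite sign, 0.17 higher in number 2, so the direction of this gene rests on the probe set.

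Of the 3 outputs of the stress response, Chac1 and Trib3 were among the 5 genes with the widest mean gap between numbers. Chac1, which degrades glutathione, ran from 115.8 to 156.7 (median 140.4) in number 1 and from 150.1 to 257.3 (median 222.8) in number 2, and was higher in 5 of 6 groups, by 0.52 ± 0.14 (adjusted p of 0.23, limma). The exception was Dex plus CCL1, at 154.3 and 150.1. Trib3, a pseudokinase that restrains ATF4 and CHOP, ran from 99.5 to 133.8 (median 115.9) and from 119.6 to 181.3 (median 175.7), and was higher in all 6 groups, by 0.44 ± 0.11 (adjusted p of 0.22, limma). Sesn2, a leucine sensor that restrains mTORC1, ran from 53.6 to 69.4 and from 54.1 to 94.5. By the chosen probe set, its gap lay in the groups without Dex, at 0.44, 0.60 and 0.67, against 0.14, 0.04 and -0.29 with Dex. The difference between these had an unadjusted p of 0.018 and an adjusted p of 0.43 in limma. A second Sesn2 probe set past the filter was higher in number 2 in 5 of 6 groups, by 0.57 on average. The chosen one had 0.27, so the width of the gap rests on the probe set.

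Serine and one-carbon enzymes were the only role in which every measured gene, 5 of 5, was higher in number 2 in all 6 groups by its chosen probe set. For Phgdh the unstimulated arrays were equal within 0.0001 (log2), and other probe sets were less uniform: 2 of Phgdh were higher in 3 of 6 groups, and the second of Psat1 in 4 of 6. Of Shmt2, the probe sets at mean signals of 68.0 and 39.0 were higher in 4 of 6 groups, with mean differences of -0.03 and 0.10. Mthfd2, the mitochondrial one-carbon enzyme that works downstream of serine, had the widest mean gap of the 35 genes. Its signal was 468 and 781 in unstimulated cells (arrays 1 and 2), 501 and 757 with Dex, 583 and 841 with Dex plus IL-9, 392 and 638 with Dex plus CCL1, 624 and 804 with IL-9, and 498 and 814 with CCL1. The highest array numbered 1, at 624, stayed under the lowest numbered 2, at 638, and the difference was 0.57 ± 0.09, with the smallest adjusted p of the genes, 0.080 (limma). It passed the threshold with quantile normalization (0.048) and with the array CCL1 2 added (0.010). That array is numbered 2 and of another array type, so adding it mixes array type with number. How many probe sets of the whole table passed in these settings is not given here, so the passes are not read as a result about the gene. Shmt2, which passes the carbon of serine to folate in mitochondria, differed by 0.32 ± 0.11 (adjusted p of 0.30, limma), and Psph, which makes serine in the last step of its synthesis, by 0.28 ± 0.09 (adjusted p of 0.28). Phgdh, the first enzyme of serine synthesis, ran from 1642 to 1928 (median 1832) in number 1 and from 1886 to 2231 (median 1997) in number 2, and Psat1, the second, from 1218 to 1303 (median 1252) and from 1285 to 1517 (median 1377). The gaps of these 2, 0.16 and 0.15 on the mean of 6 groups, were the narrowest of the role, and their ranges overlapped.

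The enzymes for other amino acids were less uniform. Asns, which makes asparagine, ran from 1073 to 1299 (median 1193) in number 1 and from 1162 to 1517 (median 1285) in number 2. It was higher in number 2 in only 3 of 6 groups, by 0.49 in Dex and 0.43 in Dex plus CCL1, and the other 4 gaps lay between -0.04 and 0.04. A second probe set of Asns was higher in all 6 groups, by 0.24 on average. Aldh18a1, the first enzyme of proline synthesis, ran from 186.6 to 274.0 and from 258.7 to 367.6 and differed by 0.40 ± 0.12 (adjusted p of 0.27, limma). Cth, which makes cysteine from cystathionine, differed by 0.31 ± 0.10 (adjusted p of 0.28, limma) and was higher in all 6 groups. Tha1, threonine aldolase, followed IL-9 and is described with it.

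Among the carriers, Slc3a2 and Slc7a5, the heavy and light chain of the exchanger that brings in leucine and other large amino acids, both separated the numbers fully. Slc3a2 ran from 537 to 694 (median 627) in number 1 and from 699.9 to 836 (median 763) in number 2, a difference of 0.31 ± 0.10 (adjusted p of 0.27, limma). Slc7a5 ran from 316 to 500.5 (median 449.7) and from 532 to 663 (median 617), a difference of 0.45 ± 0.11 (adjusted p of 0.19, limma). Slc7a11, the light chain for cystine uptake, was higher in 5 of 6 groups, at signals of 23.6 to 38.6. Slc1a5, a glutamine carrier, and Slc7a1, the carrier for arginine and other cationic amino acids, were higher in only 2 of 6; Slc7a1 ran from 10.6 to 17.6 in number 1 and from 9.0 to 17.0 in number 2, near the filter.

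Of the 11 synthetases, 10 were higher in number 2 on average and 3, Gars, Nars and Cars, for glycine, asparagine and cysteine, in all 6 groups. Sars, for serine, ran from 467.5 to 585.9 (median 480.0) in number 1 and from 575.9 to 710.0 (median 603) in number 2, a difference of 0.30 ± 0.10 (adjusted p of 0.28, limma); only IL-9, with 585.9 and 575.9, had the order turned. Aars, for alanine, had the widest gap of the role, 0.37 ± 0.11 (adjusted p of 0.26, limma), from 353 to 491 and from 458 to 661. The gap was narrower on average for the others: 0.22 for Cars, 0.16 for Nars, 0.15 for Eprs (glutamate and proline), 0.14 for Gars, 0.13 for Tars (threonine), 0.10 for Wars (tryptophan), 0.08 for Yars (tyrosine) and 0.07 for Lars (leucine). Iars, for isoleucine, was the exception: it ran from 352 to 407 in number 1 and from 347 to 427 in number 2, lower in number 2 in 5 of 6 groups by 0.02 on average. The 3 Eprs probe sets disagreed, at 0.32, 0.15 and -0.22, and Yars stood apart on the array CCL1 2, at 226.5 against 318 to 374 in the other arrays numbered 2. Stc2, a secreted glycoprotein of the stress response, was higher in 4 of 6 groups, from 58.6 to 88.3 and from 56.3 to 114.0.

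Over all 69 probe sets annotated to the genes, 34 were not the chosen ones and 29 of these passed the filter. Of the 29, 24 had the same sign of the number difference as the chosen probe set and 5 the opposite.

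**Figure D3:**
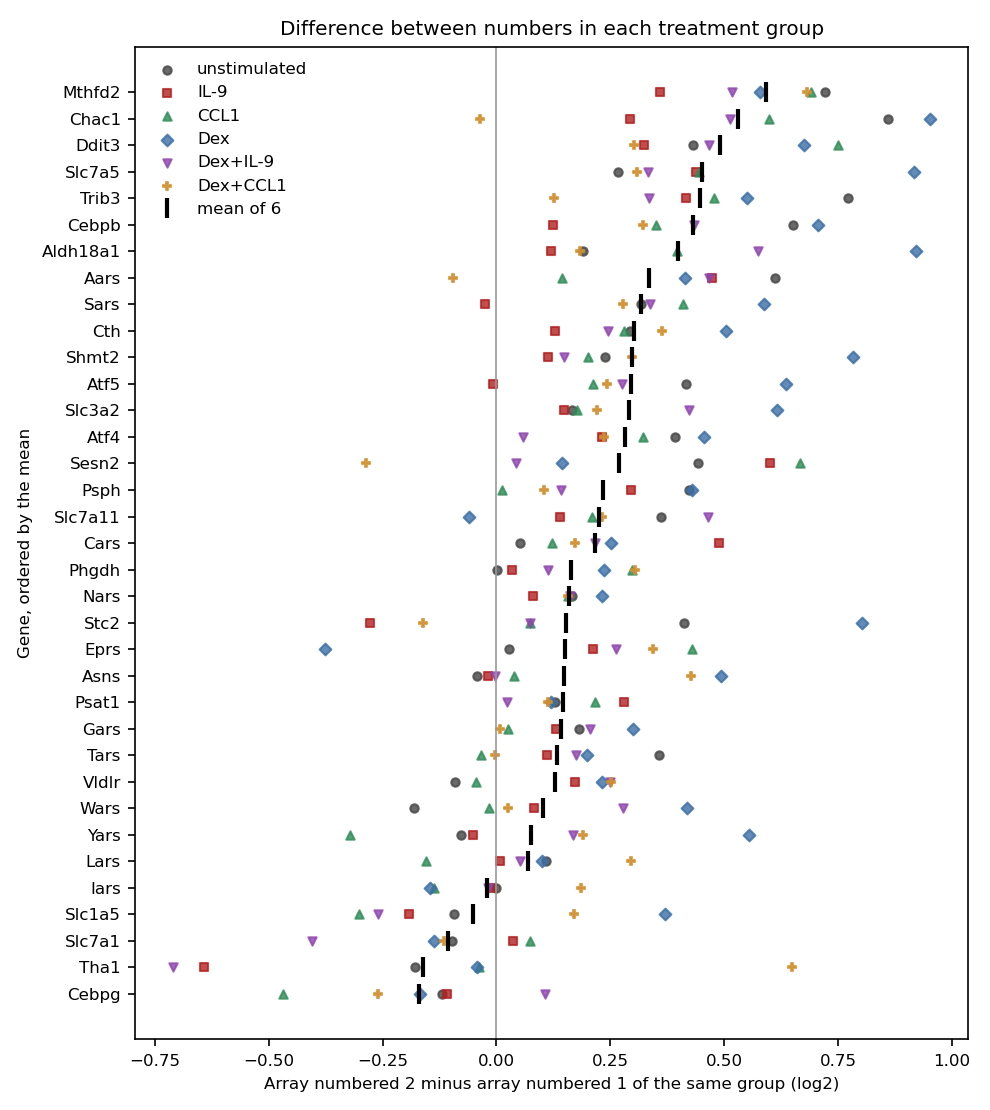
Points give, for each gene (vertical axis, ordered by the mean), log2(signal + 16) of the array numbered 2 minus that numbered 1 in each of the 6 treatment groups (marker and colour); the black bar is the mean of the 6. The means of 30 of 35 genes lie right of 0, from 0.07 for Lars to 0.59 for Mthfd2, and those of Iars, Slc1a5, Slc7a1, Tha1 and Cebpg lie left of it.

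How far the genes varied together was described by Pearson's r over arrays, with no test, since all points share the scaling and the arrays. Over 12 arrays the median r of the 595 pairs of genes was 0.35, and 37.3% of pairs were above 0.5; over all pairs of the 7507 genes these were 0.004 and 7.85%. After the group means were taken out the median was 0.556, with 54.8% of pairs above 0.5 (0.006 and 15.4% over all genes). Those deviations hold only the 6 differences between the arrays of a group, so a direction shared by number raises r there by itself. Between the 6 group means the median was 0.082, among the 6 arrays numbered 1 it was 0.128, and among the 6 numbered 2 it was 0.061, where all genes had 0.003 to 0.006. The genes were thus more alike over both numbers together than within either. Without the array Dex 2, which had the highest mean level, the median was 0.327.

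The same shows in how each gene's variation over the 12 arrays divided. The number took a median of 46.3% of the sum of squares of the 35 genes and 9.12% of that of all genes, and it took over 50% in 15 of the 35 and in 5.17% of all genes. It was 74.4% for Mthfd2, 68.3% for Ddit3, 67.9% for Sars and 66.8% for Slc3a2. The treatment group, with 5 degrees of freedom to the 1 of the number, took a median of 27.7% against 43.7%. Tha1 and Wars stood at the other end, with 87.4% and 75.3% for the group.

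Against the mean of the other 34, r over 12 arrays was above 0.5 for 23 genes and below 0 for 3. It was 0.90 for Mthfd2 and for Slc3a2, 0.88 for Sars and for Shmt2, 0.87 for Trib3 and 0.84 for Atf4. It was lowest for Iars at -0.45, Slc7a1 at -0.22 and Cebpg at -0.19. By role, the highest and the lowest were Atf4 and Cebpg among the factors, Trib3 and Sesn2 (0.42) among the stress outputs, Mthfd2 and Phgdh (0.55) among the serine and one-carbon enzymes, and Aldh18a1 (0.77) and Tha1 (0.06) among the other enzymes. They were Slc3a2 and Slc7a1 among the carriers, Sars and Iars among the synthetases, and Stc2 (0.59) and Vldlr (0.35) among the last pair. Of all pairs, Trib3 with Mthfd2 had the highest r, 0.91, and Cebpg with Cth the lowest, -0.77. Within a number some genes kept a high r, such as Shmt2 with 0.84 in number 1 and 0.69 in number 2 and Slc3a2 with 0.64 and 0.71. Others had none, such as Ddit3 with 0.02 and -0.52 and Psat1 with -0.28 and 0.03.

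**Figure D4:**
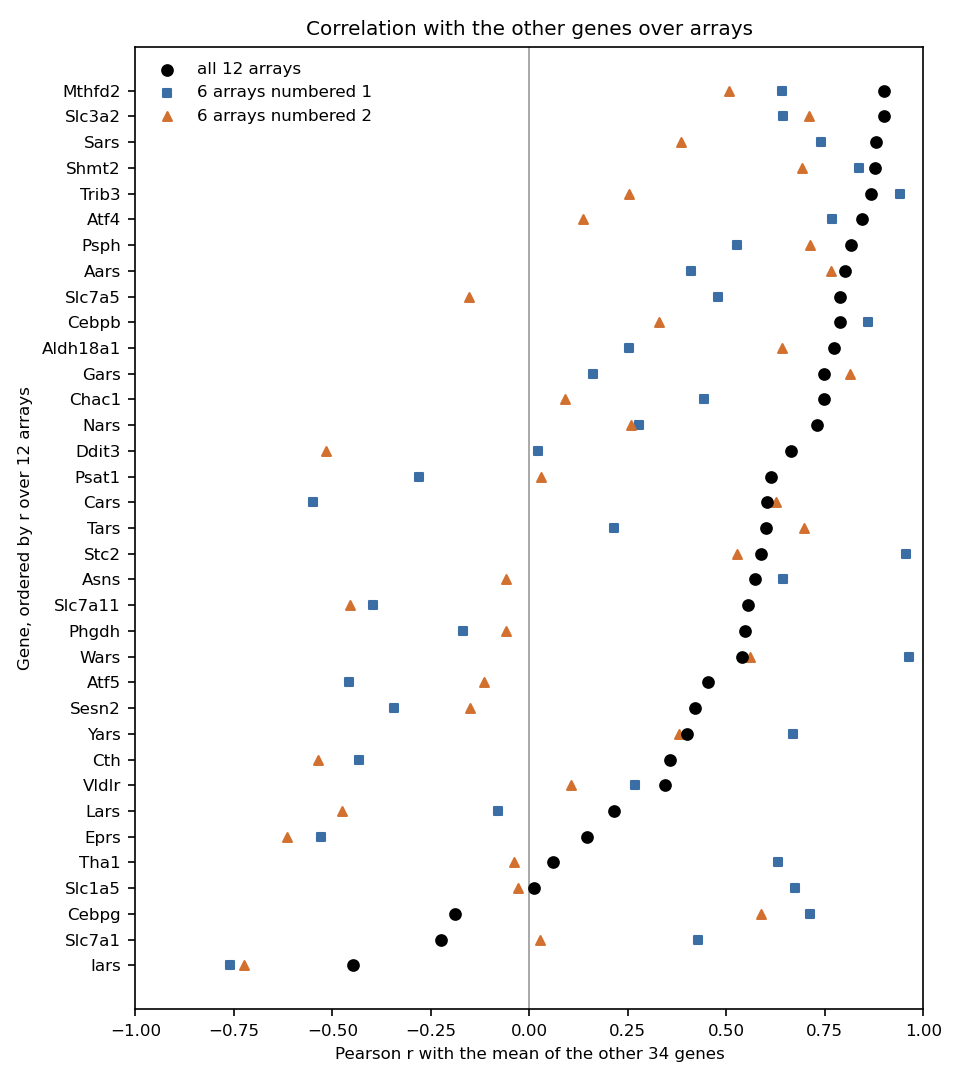
For each gene (vertical axis) the horizontal axis gives Pearson's r of its level with the mean of the other 34 genes over all 12 arrays (black), over the 6 arrays numbered 1 (blue squares) and over the 6 numbered 2 (orange triangles). Over 12 arrays 23 genes are above 0.5, and within a number the values spread widely, from -0.76 for Iars to 0.96 for Wars in number 1.

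Many genes outside the list followed the same course. Of the 7473 others past the filter, 13.1% had r above 0.5 with the mean level of the genes and 9.61% had r below -0.5 over 12 arrays. The 5 closest were Cnih1 (0.94), Gnb2 (0.94), Gfer (0.93), Fam104a (0.93) and Pkm (0.92), and the 5 most opposed were Cpa3 (-0.92), Rb1cc1 (-0.88), Rida (-0.87), Ndc80 (-0.87) and Tdp2 (-0.86).

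Of the treatments, IL-9 was asked first, with and without Dex. The treatment models held group means only, so the difference between numbers stayed in the spread behind their p-values. In cells without Dex, 0 of 34 genes passed (limma, 0.0221% of all probe sets), and 3 had an unadjusted p below 0.05 (4.89% of all). Within Dex, where no array stood against its label, 0 passed (0.0221%), and 2 had an unadjusted p below 0.05 (5.7%). These shares depended on single Dex arrays: without Dex 1, 668 probe sets of the whole table passed within Dex, against 3 with it, and the median of the 34 genes moved from 0.02 to -0.16, while without Dex 2 it was 0.20. Averaged over both, 0 passed (0.0958%), and 4 had an unadjusted p below 0.05 (8.57%). These 4 were Tha1, Wars, Cebpb and Cebpg, and all were higher with IL-9. The median difference of the 34 genes in that average was 0.02, and -0.04 without Dex 1. Tha1 is in each of the counts at the unadjusted p, and it passed the filter on low signals through the arrays with IL-9. These counts are therefore not read as a result about the list.

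Tha1, which splits threonine into glycine and acetaldehyde, had the smallest adjusted p of the list for IL-9. Its signal was 46.0 and 23.7 with IL-9 (arrays 1 and 2) and 44.2 and 20.8 with Dex plus IL-9. It was 6.2 and 3.6 in unstimulated cells, 3.6 and 3.1 with Dex, 0.8 and 0.4 with CCL1, and 0.9 and 10.4 with Dex plus CCL1. The 4 arrays with IL-9 were above the 8 others, and in both IL-9 groups the array numbered 1 was the higher one, unlike most of the list. The difference averaged over the Dex conditions was 1.27 ± 0.21 (log2, SE) with an adjusted p of 0.070 in limma, at 1.25 ± 0.30 without Dex and 1.28 ± 0.30 within Dex. It passed the threshold with median centring (0.042), with the array CCL1 2 added (0.039), with 1 probe set per gene (0.041) and without the array Dex 1 (0.021), and the adjusted p ranged from 0.021 to 0.36 over the alternatives. Without Dex 1, 358 probe sets of the whole table passed, against 13 with it. Tha1 passed the filter on low signals through the arrays with IL-9, since those without lay under 6.32 except Dex+CCL1 2, so its values describe this gene and its p supports nothing about the list; with no filter the adjusted p was 0.20. Because the signals are low, log2(signal + 16) understates this difference.

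Wars, the tryptophan synthetase, ran from 296.1 to 362.4 in the 4 arrays with IL-9 and from 211.2 to 287.7 in the 8 others, so that these did not overlap either. The difference was 0.45 ± 0.12 with an adjusted p of 0.32 (limma). Its other probe sets went with the chosen one to different degrees over the 12 arrays, with r of 0.80, 0.51 and 0.04. Besides Tha1, which had to differ to pass the filter, Wars was the only tested gene of the list with all IL-9 arrays above the others, as 0.826% of all genes had, and 0 of 34 lay wholly below, as 0.639% did. Cebpb had 103.4 and 114.1 with IL-9 and 88.5 and 125.1 with Dex plus IL-9 against 47.6 to 98.7 in the others, a difference of 0.51 ± 0.20 (adjusted p of 0.51, limma). Cebpg had 139.0 to 152.6 against 101.5 to 146.6, a difference of 0.28 ± 0.12 (adjusted p of 0.56, limma). Both overlapped with the other arrays. The other Cebpb probe set had r of 0.64 with the chosen one over the 12 arrays. The other Cebpg probe sets past the filter had r of -0.006 and -0.316, so the IL-9 difference of Cebpg describes the chosen probe set.

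**Figure D5:**
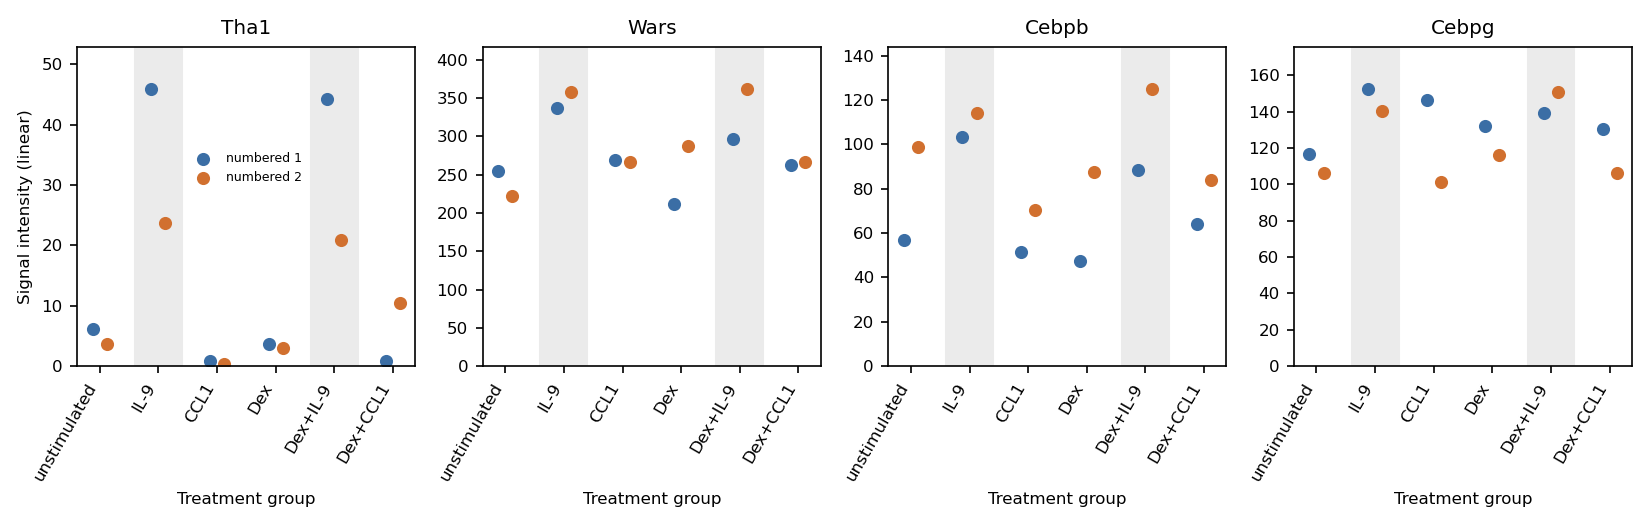
Signal intensity (linear, vertical axes from 0) of Tha1, Wars, Cebpb and Cebpg on each array by treatment group, with arrays numbered 1 in blue and numbered 2 in orange and the groups with IL-9 shaded. Tha1 lies at 20.8 to 46.0 with IL-9 and at 10.4 or less elsewhere, Wars at 296.1 to 362.4 and 211.2 to 287.7, and the ranges of the other pair overlap.

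CCL1 and Dex had no gene of the list past the threshold, nor any at an unadjusted p below 0.05 in 8 of their comparisons. Without Dex, CCL1 rested on the array CCL1 1, which is 1 of the 3 that stood against their labels and is assumed to vary like the arrays of other groups. For CCL1, 0 of 34 passed without Dex (0.0% of all probe sets passed, 3.29% at the unadjusted p), within Dex (0.00737% and 6.52%) and on average (0.00737% and 5.6%), and the average difference had a median of -0.02, or 0.03 with the array CCL1 2 added. Without Dex 1, 528 probe sets of the whole table passed for CCL1 within Dex, against 1 with it. For Dex, 0 passed against unstimulated cells (0.0% and 2.95%), within IL-9 (0.0% and 1.57%), within CCL1 (0.0% and 2.08%) and on average (0.0% and 1.53%), with a median of 0.01. Those Dex comparisons rest on the 3 arrays that stood against their labels, and without Dex 1, 529 probe sets passed for Dex against unstimulated cells, where 0 did with it and 0 of the 34 genes did in either case. In the arrays numbered 2, where the glucocorticoid targets did differ with Dex, 0 of 34 genes passed (0.597% of all) and 1 had an unadjusted p below 0.05 (10.5% of all): Sesn2, at -0.42 ± 0.16 with an adjusted p of 0.37 (limma). In the arrays numbered 1, 0 passed (0.0%) and 0 had an unadjusted p below 0.05 (2.5%). Over the 12 arrays, 0 of 34 genes separated CCL1 from the rest, above (0.666% of all) or below (0.533%), and 0 separated Dex from the rest, above (0.0533%) or below (0.0133%). Atf4 differed by -0.01 ± 0.12 for Dex on average, Asns by -0.02 and Ddit3 by 0.21. In that average 0 genes of the comparison lists passed either, and the 2 widest values of each were Ddit4 (0.40) and Gadd45a (0.28) among other ATF4 targets, Hars (-0.13) and Kars (0.05) among other cytosolic synthetases, Sars2 (0.12) and Iars2 (0.08) among mitochondrial ones, Eif2s3x (-0.10) and Eif2ak1 (-0.09) among eIF2 genes, Tyms (-0.15) and Gcsh (0.07) among folate and glycine genes, and Tsc22d3 (0.58) and Gpr65 (0.46) among glucocorticoid targets.

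The other genes of the pathway, from lists that were not part of the 36, were set beside them for the number over all groups (limma), where 0 of each list passed. Of 17 other known ATF4 targets 13 were higher in number 2, with a median of 0.16, next to 0.21 for the 34. Of 7 other cytosolic synthetases 4 were higher (median 0.03), and of 8 mitochondrial ones 2 (median -0.05). Of 10 genes of the eIF2 kinases, eIF2 and its exchange factor 2 were higher (median -0.07), and of 4 other folate and glycine genes 2 (median -0.02). In the arrays without Dex 2 of the 17 other targets fell in number 2: Gadd45a, a growth arrest gene, by 1.41 ± 0.13 (adjusted p of 0.00014) and Ddit4, an inhibitor of mTORC1, by 0.80 ± 0.16 (adjusted p of 0.036, limma). Eif2ak3, the eIF2 kinase PERK, fell there too, by 0.82 ± 0.16 (adjusted p of 0.035). Gadd45a and Ddit4 rose with Dex in the arrays numbered 2, by 1.20 ± 0.13 and 0.88 ± 0.16 (adjusted p of 0.00061 and 0.026, limma), as did 7 of the 8 glucocorticoid targets, Tsc22d3, Fkbp5, Per1, Dusp1, Nfkbia, Gpr65 and Bcl2l11. These 3 genes thus differed between numbers in the direction opposite to most of the 36, in the arrays where the glucocorticoid targets also differed.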

How the data were processed

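The deposited values were MAS5 signal intensities on a linear scale, per the submitters' processing notes, and the mean after trimming 2% at each end was 100 to 100.1 in each array. The version of MAS5 is not given in the sources used here. The platform annotation gave 1 symbol for 20380 probe sets, several for 691 and none for 1555.

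Signals were taken as log2(signal + 16), 64 control probe sets were left out, and 13575 of 22626 probe sets were kept. Models were fitted in limma 3.58.1 (R 4.3.3) on 11 arrays, with p-values adjusted by Benjamini-Hochberg and a threshold of 0.05. The terms were 1 mean per group; treatment with the 4 cells of Dex and number; or group and number. The residual degrees of freedom were 5, 5 and 4. The limma models were tested on simulated data that held known changes.

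Members given by array were Atf4, Asns, Ddit3, Chac1, Trib3, Psat1 and Phgdh, the highest and lowest r of a role, and others to account for each. Non-members were the 5 highest and 5 lowest r and, of the comparison lists, genes past the threshold and the 2 with the largest absolute difference for Dex on average. The members, lists and comparisons were chosen with earlier results of these data known.

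Alternatives were median centring, quantile normalization, a pseudocount of 1 or 64, a filter at the 60th percentile or none, no intensity trend, the array CCL1 2 added, 1 probe set per gene, the mean of all probe sets of a gene, the replicate block and each array left out.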

Additional observations from a re-analysis of the deposited data

How the results depend on the processing

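The number of members past the threshold, 0 in each of the 16 comparisons, stayed at 0 in all alternatives run except these. For IL-9 averaged over the Dex conditions it was 1 (Tha1) with median centring, with the array CCL1 2 added and with 1 probe set per gene, and 0 to 1 when single arrays were left out. For number 2 against number 1 it was 2 (Sesn2 and Mthfd2) without Dex when the array CCL1 2 was added, 0 to 3 with Dex when single arrays were left out, and 1 (Mthfd2) over all groups with quantile normalization and with the array CCL1 2 added. For the settings other than an omitted array, the counts over the whole table are not given here, so these member counts are not read as a result about the list. The array CCL1 2 is of another array type and numbered 2, so adding it mixes type with number. The cause was not tested. The median r between members, 0.35, was 0.423 with median centring and 0.3997 on the 11 arrays of the larger table, and 0.314 to 0.401 when single arrays were left out. The median difference between numbers, 0.22, stayed between 0.16 and 0.24. The medians of the 6 comparisons by number, or of Dex within a number, kept their sign in all alternatives. Those of the 10 treatment comparisons lay near 0, and each changed sign in at least 1: the median for CCL1 on average, -0.02, was 0.03 with the array CCL1 2 added and 0.05 without Dex 2, that for IL-9 on average, 0.02, was -0.04 without Dex 1, and that for Dex on average, 0.01, was -0.02 with median centring and -0.07 without Dex 2.

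With the replicate block in the treatment model, 0 members passed in each of the 10 treatment comparisons. The adjusted p of Tha1 for IL-9 was 0.050 there, just over the threshold, with the difference at 1.27. The labels do not say whether the numbers pair the arrays. The correlation of the number differences between groups lay between -0.01 and 0.35 over 15 pairs of groups, above 0.1 in 10. After the group means were taken out, each of the 12 arrays correlated best, outside its own group, with an array of its own number. The arrays of a group are then mirror images of each other, so this restates the correlations of the differences and adds no separate support. Those correlations are a hint from the data and not the design.

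The number of arrays, 2 in a group, limits the precision: the standard errors of Mthfd2 and Chac1 were 0.30 and 0.33 for IL-9 against unstimulated cells. For the number over all groups, which compares arrays across the groups, they were 0.09 and 0.14. Genes near the filter, such as Tha1, Slc7a1 and Vldlr, have signals close to the background of the arrays.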
